A study of Mus musculus with 3 samples.

Results

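The RNAs of 10 antioxidant enzymes were examined in platelets, the clot-forming fragments that megakaryocytes release into the blood. The genes were Gpx1, Gpx4, Prdx1, Prdx2, Prdx5, Prdx6, Sod1, Sod2, Cat and Txn1. They were chosen by symbol, for what their products do, with earlier results of these data known. All 10 were matched to mouse Entrez numbers and found in the deposited tables, which list 9822 genes. The platelets had been purified from blood of male BALB/c mice, 20 weeks old, wild type for Nxf1. There was 1 group of 3 libraries, called replicates 1, 2 and 3, with total counts of 26974129, 25189231 and 26111636. With no second group, the data give the level of each RNA and the spread between libraries. The labels call the samples independent and give each a batch of its own, so an animal and a batch cannot be told apart, and p-values measure only the spread between these samples.

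Platelets make superoxide and hydrogen peroxide when they are activated, partly through the NADPH oxidase, and these oxidants act on platelet signalling. Superoxide dismutases turn superoxide into hydrogen peroxide. Catalase, glutathione peroxidases and peroxiredoxins then remove the peroxide. Glutathione peroxidases are recharged by glutathione, and most peroxiredoxins by thioredoxin, whose own reductase draws on NADPH. The platelet keeps its RNA after losing contact with the nucleus, so its RNA describes what the megakaryocyte loaded and what has since survived.

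Catalase and peroxiredoxin 6 RNAs led the set, and mitochondrial superoxide dismutase RNA was far below all the others. Levels are given as CPM (reads of a gene per 1000000 reads counted in its library) and, wherever genes are compared with each other, as RPKM (CPM per 1000 bases of the gene length in the tables). The 10 genes together took 3120.5 ± 32.7 CPM (SD, n = 3), or 0.312% ± 0.00327 of counts. Cat and Prdx6 held 73.6% ± 0.838 of the CPM and 50.6% ± 1.03 of the RPKM of the set. Each of the 10 reached 1 CPM in every library, as did 77.7% of all genes of the tables, so that detection by itself says little about them. Their median level was 116 CPM against 3.86 CPM over all genes, and 128 RPKM against 1.49 RPKM. These medians only describe the set, since it was chosen with earlier results of these data known.

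The chemistry of the peroxidases rests on a single residue, and its codon shows how the families differ. In Gpx1 and Gpx4 the residue is selenocysteine, encoded by a TGA that elsewhere ends translation. In peroxiredoxins it is a cysteine. The coding sequence around that codon is printed here from the GENCODE M21 transcripts (GRCm38), 5′ to 3′, with the catalytic codon in capitals.
Gpx1: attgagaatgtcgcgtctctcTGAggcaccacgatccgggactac
Gpx4: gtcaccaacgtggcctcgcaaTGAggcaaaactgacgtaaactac
Prdx1: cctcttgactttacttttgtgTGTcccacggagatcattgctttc
Prdx2: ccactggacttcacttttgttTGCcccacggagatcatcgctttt
Prdx5: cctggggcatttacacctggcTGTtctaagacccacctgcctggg
Prdx6: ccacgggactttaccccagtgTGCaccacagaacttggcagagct
Prdx6b: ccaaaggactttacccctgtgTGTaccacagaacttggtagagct

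The TGA of Gpx1 lies at chr9:108339451-108339453 on the plus strand, in exon 1, and is codon 47. In Gpx4 it lies at chr10:80054737-80054739, plus strand, in exon 3, and is codon 73 of the principal transcript. The cysteine codons of Prdx1 (chr4:116691823-116691825), Prdx2 (chr8:84970483-84970485) and Prdx6b (chr2:80292987-80292989) are on the plus strand. Those of Prdx5 (chr19:6907988-6907990) and Prdx6 (chr1:161247368-161247370) are on the minus strand, and the Prdx5 stretch crosses an intron. Cysteine codons were placed by a proline, a threonine or serine and a cysteine at the spacing of the peroxiredoxin active site. Over the aligned bases of the coding sequence, Prdx1 and Prdx2 were 69.9% identical, Gpx1 and Gpx4 61.2% (505 bases aligned) and Prdx5 and Prdx6 58.2% (577 bases aligned), with no shared run longer than 14 bases, so reads from these pairs differ in sequence. Prdx6b is a copy of Prdx6 with 48 differences in 672 coding bases (92.9% identity) and a longest shared run of 53 bases.

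**Figure D1:**
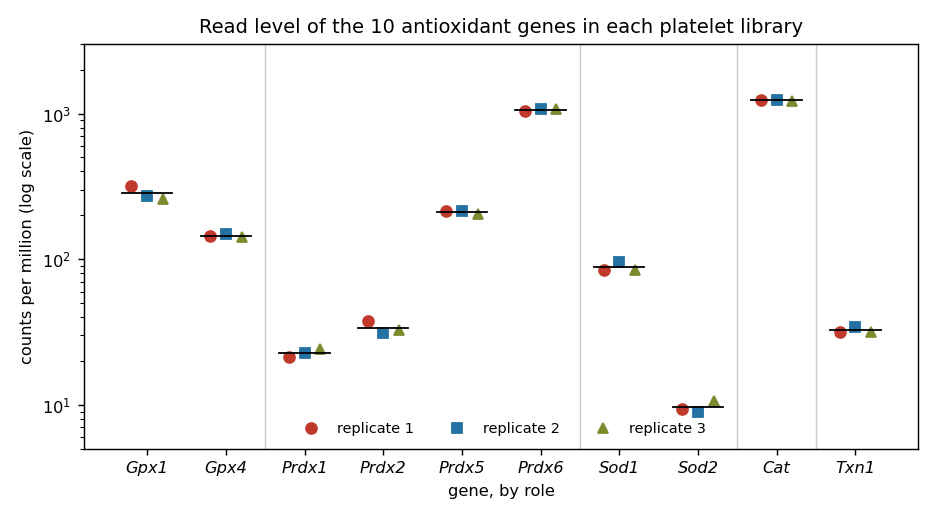
CPM (log scale) of each of the 10 genes in replicate 1 (circles), replicate 2 (squares) and replicate 3 (triangles), with the mean as a line and thin vertical lines between roles. Cat and Prdx6 lie near 1232 and 1063 CPM, Sod2 near 9.63 CPM, and the libraries lie close together for every gene.

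Catalase, the haem enzyme that splits hydrogen peroxide into water and oxygen, had the highest level of the set by CPM. Its lead over Prdx6 per gene length was 1.06-fold without the reads of Prdx6b, and is not settled with them. Cat (Entrez gene 12359, chr2:103453904-103485153 in GRCm38) had 1245, 1237 and 1214 CPM in replicates 1, 2 and 3, on the strength of 33587, 31164 and 31691 reads. Its mean of 1232 ± 16.4 CPM (SD, n = 3) ranked 105 of the 9822 genes, and its 483 ± 6.42 RPKM ranked 141. The libraries spanned only 1.03-fold. The standard deviation was 1.33% of the mean, where counting error alone would give 0.558%.

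The glutathione peroxidases were unequal. Gpx1 (Entrez gene 14775, chr9:108339080-108340342), the cytosolic and mitochondrial enzyme that reduces hydrogen peroxide, had 316, 274 and 260.3 CPM in replicates 1, 2 and 3. Replicate 1 was the highest, at 1.15 times replicate 2 and 1.21 times replicate 3. Gpx4 (Entrez gene 625249, chr10:80047166-80056439) reduces lipid hydroperoxides within membranes and protects cells from ferroptosis. It had 145, 148 and 142 CPM, a spread of 2.27% of the mean by plain totals. Per gene length Gpx1 was at 271 ± 27.6 RPKM and Gpx4 at 121 ± 2.74 RPKM (SD, n = 3 each). The log2 ratio of Gpx1 to Gpx4 was 1.16 ± 0.14, so that Gpx1 gave 2.24 times as many reads per length, with the same sign in all 3 libraries.

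The peroxiredoxins spanned a wide range, with Prdx6 and Prdx5 high and Prdx2 and Prdx1 low. Prdx6 (Entrez gene 11758, chr1:161240112-161251210) is the 1-Cys member, which uses glutathione and also acts on phospholipids. It had 1039.8, 1070.5 and 1079.7 CPM in replicates 1, 2 and 3, a mean of 1063 ± 20.9 CPM (SD, n = 3) and rank 117. Prdx5 (Entrez gene 54683, chr19:6906697-6910106), found in mitochondria, peroxisomes and cytosol, had 213, 214 and 204 CPM. Their spreads were 1.97% and 2.55% of the mean by plain totals.

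Prdx2 and Prdx1 are the cytosolic 2-Cys peroxiredoxins, and Prdx2 is best known as an abundant protein of red cells. Prdx2 (Entrez gene 21672, chr8:84969622-84974811) had 37.9, 31.2 and 32.5 CPM in replicates 1, 2 and 3. Replicate 1 was the highest, as for Gpx1. Prdx1 (Entrez gene 18477, chr4:116685599-116700000) had 21.3, 22.7 and 24.1 CPM, with replicate 1 the lowest. Per gene length Prdx6 was at 456 ± 8.96 RPKM, Prdx5 at 306 ± 7.78 RPKM, Prdx2 at 35.9 ± 3.73 RPKM and Prdx1 at 16.03 ± 0.978 RPKM (SD, n = 3 each). Prdx6 gave 1.49 times the reads per length of Prdx5, and Prdx2 2.23 times those of Prdx1, both with the same sign in every library. With the exon length of GENCODE M21 in place of the length in the tables, Prdx6 gave 2.93 times the reads per length of Prdx5.

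Some of these reads may be shared with copies or neighbours. Prdx6b had 87.3, 85.0 and 95.02 CPM, or 8.40%, 7.94% and 8.80% of the reads of Prdx6 in replicates 1, 2 and 3. With its reads added, Prdx6 stood at 1152 CPM. That sum would place Prdx6 above Cat per gene length of the tables, but not with the GENCODE M21 length. First place between Cat and Prdx6 is thus not settled. Prdx1 has 2 pseudogenes in GENCODE whose sequence matches its coding sequence at 95% or more over at least 100 bases. One of them, Gm21399 on chromosome 8, was in the tables at 10.6, 9.17 and 10.1 CPM, or 44.0% of the Prdx1 level by reads. Gpx4 has 2 such pseudogenes and Prdx2, Sod1 and Txn1 1 each, none of which had a row of its own, and Gpx1, Prdx5, Prdx6, Sod2 and Cat had 0. The principal transcript of Prdx2 also shares 173 of its 1500 bases with Junb and 152 with Rnaseh2a on the opposite strand. The library kit does not mark strand, so reads of overlapping genes cannot be told apart there. How reads that map to several places were counted is not given in the sources, so the levels of Prdx1, Prdx2, Gpx4, Sod1 and Txn1 are less certain than those of Cat and Gpx1.

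The pair of superoxide dismutases lay far apart. Sod1 (Entrez gene 20655, chr16:90220762-90226333), the copper and zinc enzyme of the cytosol, had 83.8, 95.4 and 84.4 CPM in replicates 1, 2 and 3. Replicate 2 was the highest. Sod2 (Entrez gene 20656, chr17:13007839-13018119), the manganese enzyme of mitochondria, had 9.38, 8.93 and 10.6 CPM, resting on 253, 225 and 276 reads, and ranked 3108 by CPM. At 136 ± 10.1 and 2.52 ± 0.221 RPKM (SD, n = 3 each), Sod1 gave 53.5 times the reads per length of Sod2, a log2 ratio of 5.74 ± 0.21, or 6.40 with the GENCODE length. By reads alone the log2 ratio was 3.18, as Sod2 has the longest gene model of the set. Txn1 (Entrez gene 22166, chr4:57943373-57956411), the cytosolic thioredoxin that recharges 2-Cys peroxiredoxins, had 31.6, 34.3 and 31.7 CPM, or 31.0 ± 1.43 RPKM.

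Ordered by RPKM, the set ran Cat, Prdx6, Prdx5, Gpx1, Sod1, Gpx4, Prdx2, Txn1, Prdx1 and Sod2. By plain totals, neighbours in this order had ranges over the 3 libraries that did not overlap, except Prdx5 (297 to 311 RPKM) and Gpx1 (249 to 302 RPKM). With TMM scaling the ranges of Cat and Prdx6, of Sod1 and Gpx4, and of Prdx2 and Txn1 overlapped too. Within each library the order was the same, with the length of the tables. Prdx5 was at 309, 311 and 297 RPKM and Gpx1 at 302, 262 and 249 RPKM in replicates 1, 2 and 3. TMM applies 1 factor to a whole library, so it shifts levels between libraries and leaves the order within each unchanged. The widest steps were 6.37-fold between Prdx1 and Sod2 and 3.36-fold between Gpx4 and Prdx2. Summed by role, peroxiredoxins made up 43.8% ± 0.807 of the RPKM of the set, catalase 26.0% ± 0.153, glutathione peroxidases 21.1% ± 1.21, superoxide dismutases 7.44% ± 0.507 and thioredoxin 1.67% ± 0.0720 (SD, n = 3 each).

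The order depends in part on the gene length. With the exon length of protein-coding transcripts in GENCODE M21, a check added after seeing the data, Prdx5 and Prdx2 had models 2.10 and 2.12 times as long as in the tables. Prdx5 then stood at 145 RPKM, below Gpx1 at 264 RPKM, and Prdx2 at 17.0 RPKM, below Txn1 at 31.0 RPKM. The other members kept their places.

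**Figure D2:**
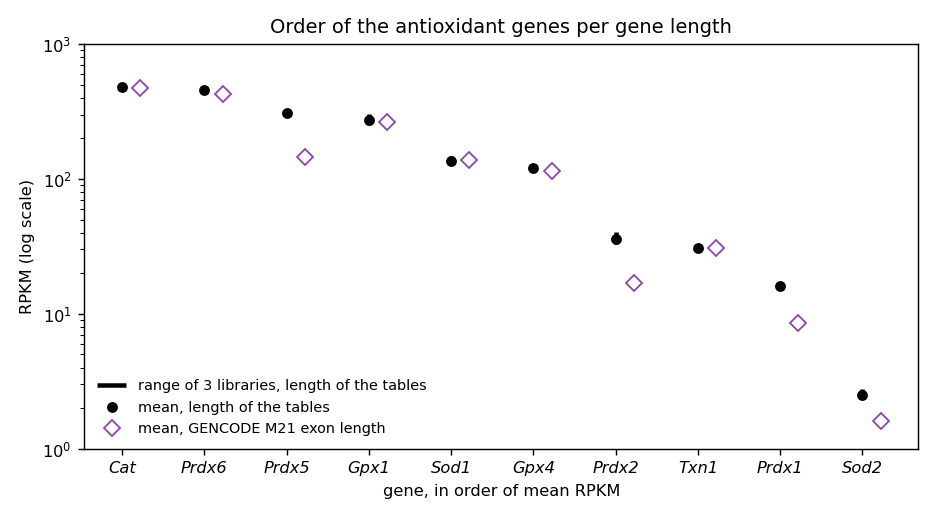
RPKM (log scale) of the 10 genes in descending order, as mean (points) and range over 3 libraries (bars, mostly shorter than the points) with the gene length of the tables, and as mean with GENCODE M21 exon length (open diamonds). Cat and Prdx6 lead and Sod2 is last on both lengths, while Prdx5 and Prdx2 fall 1 place each with the GENCODE length.

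By plain totals the libraries differed little for these genes. The median SD of the members was 5.35% of the mean, against 7.43% over genes averaging at least 10 CPM. The other scalings reversed this comparison. The members had a median of 9.78% against 8.47% with TMM scaling, and 12.3% against 10.01% with DESeq2 size factors. Whether the members were steadier than other genes thus depended on the scaling. In edgeR's test of each gene's quasi-likelihood dispersion against the trend, 0 of the 10 members passed a Benjamini-Hochberg adjusted p of 0.05, against 0.229% of the 8289 genes tested (19 genes). At an unadjusted p under 0.05 the count was also 0 members (356 of all genes), and DESeq2's dispersion outliers held 0 members too (49 genes). Gpx1 came nearest, with a dispersion 3.50 times the trend (edgeR's quasi-likelihood fit, Benjamini-Hochberg adjusted p = 0.982). On data simulated from these libraries the test found 0 of 50 genes changed 2-fold in 1 library and 26 of 50 changed 4-fold, so changes of the size seen in these genes lie below what it can call.

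Gpx1 and Prdx2 had the widest spreads by plain totals, at 10.2% and 10.4% of the mean, and both were highest in replicate 1. Replicate 1 also held far more red cell RNA. Of 17 red cell genes in the list, 13 were in the tables, and they took 4.89%, 0.524% and 0.684% of counts in replicates 1, 2 and 3, or 9.34 times as much in replicate 1 as in replicate 2. Alas2, which starts haem synthesis in red cell precursors, was 20.3 times as high in replicate 1 as in replicate 2, where Gpx1 was 1.15 and Prdx2 1.21 times as high. Cat, which also encodes an abundant red cell enzyme, was 1.01 times as high. The part of red cell RNA in the Gpx1, Prdx2 and Cat values was not tested. In such bulk samples, fewer cells of a type and less RNA per cell cannot be told apart.

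**Figure D3:**
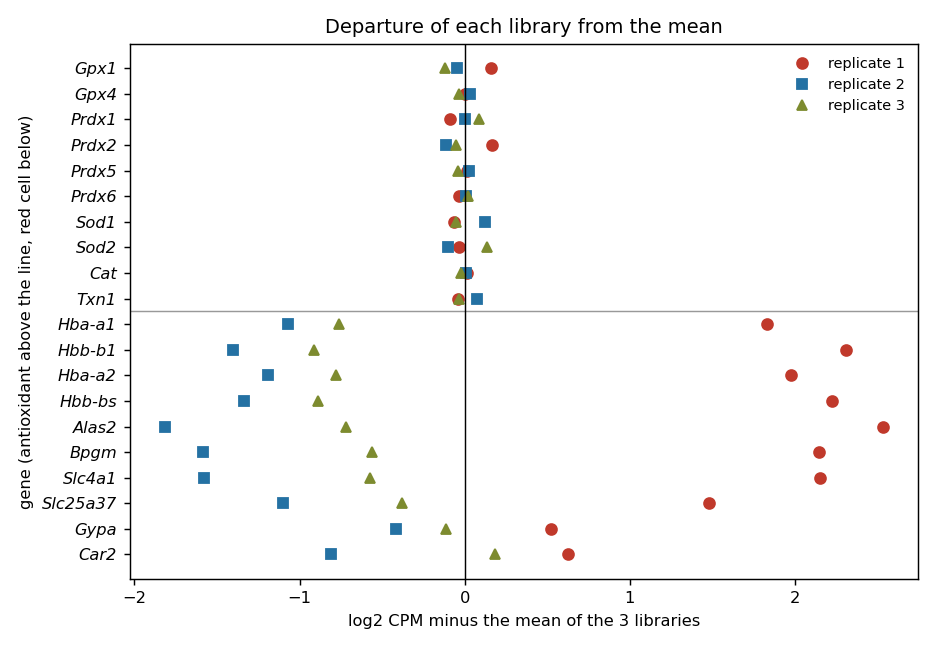
Log2 CPM minus the mean of the 3 libraries for the 10 antioxidant genes (above the line) and the red cell genes averaging at least 5 CPM (below it), by replicate. The antioxidant genes stay within -0.12 and 0.17 of their mean, whereas Alas2 lies at 2.53 in replicate 1 and -1.81 in replicate 2.

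Which library stood lowest depended on the scaling. TMM scaling moved replicates 1, 2 and 3 by 0.07, 0.06 and -0.13 on the log2 scale, and DESeq2 size factors by 0.08, 0.09 and -0.17. By plain totals replicate 3 was lowest for 4 of the 10 members (11.5% of the 8289 genes). It was lowest for 9 of 10 with TMM (34.4% of genes), all but Sod2, and for 10 of 10 with DESeq2 size factors (41.7%). Gpx1 and Prdx2 were highest in replicate 1 under these 3 scalings, whereas Prdx6, Prdx1 and Sod2 were highest in replicate 3 by plain totals but not with TMM or DESeq2 size factors. Spreads within single genes moved with the scaling too. That of Cat was 8.85% of the mean with TMM and 11.4% with DESeq2 size factors, that of Gpx4 9.55% and 12.1%, that of Prdx5 10.004% and 12.5%, and that of Prdx6 6.47% and 9.09%. Sod2, among the widest by plain totals, was the narrowest of the 10 with TMM (2.65%) and DESeq2 size factors (3.09%), followed by Prdx1 at 4.07% and 6.39%.

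Profiles over 3 libraries do not single out partners. For the 3 members with the widest log2 spread by plain totals, the nearest genes averaging at least 10 CPM, by Euclidean distance of centred log2 CPM, were Pcyt1a, H4c8 and Tacc1 for Prdx2 (distances 0.02, 0.02 and 0.03). They were Nbr1, Hbq1b and Adam10 for Gpx1 (0.01, 0.03 and 0.04), and Trdv5, Gm4963 and Tut7 for Sod2 (all under 0.01). Within a distance of 0.1 there were 95 genes for Prdx2, 64 for Gpx1 and 526 for Sod2.

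The rest of the antioxidant system lay below the 10 members by its median. In 8 lists with 98 genes, 77 were in the tables and 63 of those reached 1 CPM in every library, against 77.7% of all genes, a share near that background. Their median was 6.84 CPM and 2.78 RPKM, against 3.86 CPM and 1.49 RPKM over all genes. A few genes stood at the level of the members. Srxn1, sulfiredoxin, which restores overoxidised 2-Cys peroxiredoxins, had 797, 720 and 863 CPM in replicates 1, 2 and 3, or 307 ± 27.7 RPKM (SD, n = 3). Gclm, the modifier subunit of the enzyme that begins glutathione synthesis, was at 433 ± 16.3 CPM, or 295 ± 11.1 RPKM. Its catalytic partner Gclc had 30.7, 27.4 and 29.9 CPM, or 8.56 RPKM on average.

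Among the other peroxidases and dismutases 3 of 8 genes were in the tables and all 3 were detected (77.7% over all genes). Prdx4, the peroxiredoxin of the secretory pathway, was at 75.8 ± 2.74 RPKM, and Prdx3, a mitochondrial one, at 31.1 ± 2.54 RPKM. Ccs, the chaperone that loads copper into Sod1, was at 1.73 ± 0.0689 RPKM (SD, n = 3 each). Prdx5 gave 9.83 times the reads per length of Prdx3 with the length of the tables, a log2 ratio of 3.30 ± 0.13, or 2.26 with the GENCODE length.

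Among the partners of thioredoxin, 10 of the 12 genes with a row were detected (77.7% over all genes), at a median of 1.71 RPKM. After Srxn1 came Txnl4a, a splicing protein with a thioredoxin fold, at 22.4 ± 0.938 RPKM. Txnip, the inhibitor of thioredoxin, was at 9.82 ± 2.52 RPKM. Txn1 gave 3.81 times the reads per length of the mitochondrial Txn2 and 15.96 times those of its reductase Txnrd1. With the GENCODE length the Txn1 to Txn2 ratio was 12.5-fold. Srxn1 gave 19.1 times the reads per length of Prdx1 (log2 ratio of Prdx1 to Srxn1 -4.25 ± 0.13, or -5.04 with the GENCODE length), so the repair enzyme stood far above this substrate at the RNA level.

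Glutathione synthesis and recycling genes were detected in 14 of 15 cases (77.7% over all genes), at a median of 8.56 RPKM. Pgd, which makes NADPH in the pentose phosphate pathway, was at 75.8 ± 1.58 RPKM, and Slc3a2, the heavy chain of the cystine carrier, at 51.1 ± 2.87 RPKM (SD, n = 3 each). Gpx1 gave 6.26 times the reads per length of Gsr, which recycles glutathione (log2 ratio 2.65 ± 0.09). Of 16 glutathione transferase genes 8 were in the tables and 5 of those were detected (77.7% over all genes), at a median of 4.59 RPKM. The highest by reads were Gsto1 at 15.8 ± 1.25 RPKM, Gstz1 at 7.07 ± 0.309 RPKM and Gstt1 at 11.7 ± 1.37 RPKM, and Gstp1, next by reads, was at 13.8 RPKM.

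**Figure D4:**
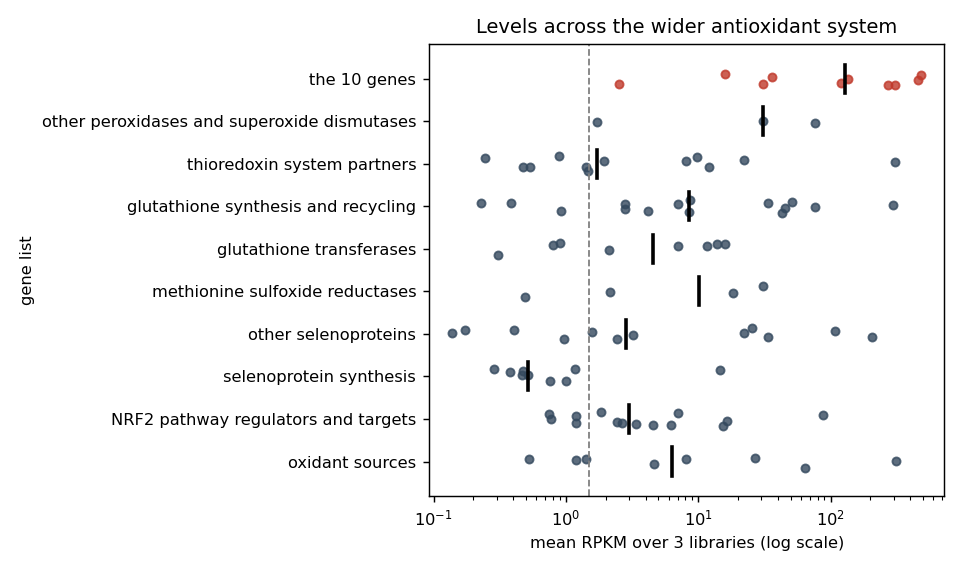
Mean RPKM over 3 libraries (log scale) of the 10 genes (top row, red) and of the genes in 9 further lists, with list medians as black bars and the median of all genes (1.49 RPKM) as a dashed line. The 10 genes have a median of 128 RPKM, above that of every other list shown, and single genes such as Srxn1, Gclm, Selenow and Rac1 reach their range.

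Gpx1 and Gpx4 need the selenocysteine machinery, whose genes in the tables, all but Sephs2, lay below the median RPKM of all genes. Of 10 genes 9 were in the tables and 4 were detected (77.7% over all genes), at a median of 0.521 RPKM against 1.49 RPKM over all genes. Sephs2, which makes the selenium donor, was highest at 14.7 ± 1.47 RPKM, with the selenoprotein P receptor Lrp8 at 0.756 ± 0.0618 RPKM next in reads and Secisbp2l at 0.477 ± 0.0604 RPKM after it (SD, n = 3 each). Of the 12 other selenoprotein genes with a row, 10 were detected (77.7% over all genes). They were led in reads by Selenof (109 ± 4.28 RPKM), Selenow (207 ± 5.95 RPKM) and Selenot (25.4 ± 2.06 RPKM). All 4 methionine sulfoxide reductases were detected (77.7% over all genes). The selenoprotein Msrb1 was at 31.0 ± 1.95 RPKM, Msrb2 at 18.2 ± 0.744 RPKM and Msra at 2.15 ± 0.335 RPKM.

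NRF2 is the factor that switches on many antioxidant genes. In the list of its regulators and targets, 13 of 14 genes were detected (77.7% over all genes) at a median of 3.01 RPKM. Blvrb, a biliverdin and flavin reductase, was at 88.0 ± 4.05 RPKM, Nfe2l2, which encodes NRF2, at 16.5 ± 0.809 RPKM, and Cul3, part of the ligase that marks NRF2 for destruction, at 15.5 ± 0.847 RPKM (SD, n = 3 each). All 8 oxidant source genes in the tables were detected (77.7% over all genes). The GTPase genes Rac1 and Rac2 were at 312 ± 36.1 and 26.9 ± 8.28 RPKM, and Cyba, a membrane subunit of the NADPH oxidase, at 63.8 ± 1.01 RPKM. Rac2 was highest in replicate 3, with 65.4, 68.8 and 111 CPM in replicates 1, 2 and 3. The B cell markers were too, at 145, 134 and 226 summed CPM over 5 of 5 genes. So were T cell markers, at 14.1, 16.7 and 24.5 CPM over 4 of 5 genes, and neutrophil markers, at 10.6, 16.2 and 19.6 CPM over 3 of 6 genes. By plain totals, 69.1% of the 8289 genes were highest in replicate 3 as well, so a shared peak there is common. Monocyte markers were highest in replicate 2, at 1306, 1529 and 1383 CPM in replicates 1, 2 and 3. The part of such cells in the Rac2 value was not tested.

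**Figure D5:**
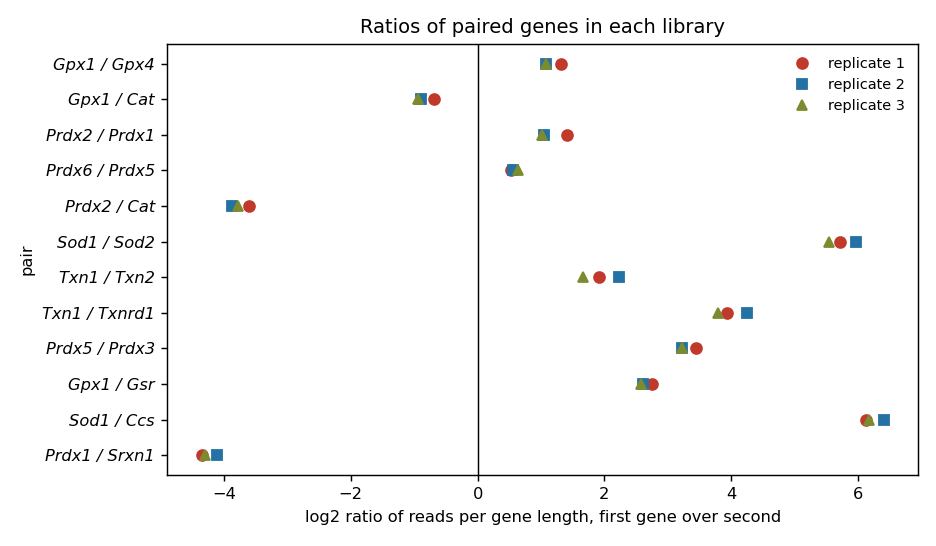
Log2 ratio of reads per gene length in 12 pairs of genes, first gene over second, in replicates 1 (circles), 2 (squares) and 3 (triangles). Every pair keeps its sign in all 3 libraries, from -4.25 on average for Prdx1 over Srxn1 to 6.24 for Sod1 over Ccs.

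In 9 of the 12 pairs the first gene was higher in every library. The exceptions were Gpx1 to Cat, at a log2 ratio of -0.84 ± 0.13, Prdx2 to Cat, at -3.75 ± 0.14, and Prdx1 to Srxn1 (SD, n = 3 each). Cat thus gave 1.79 times the reads per length of Gpx1 and 13.5 times those of Prdx2, or 27.8 times those of Prdx2 with the GENCODE length. Sod1 gave 75.4 times the reads per length of Ccs, at a log2 ratio of 6.24 ± 0.16. Ratios carry no test, since 3 libraries are too few for an exact sign-flip test to reach any usual threshold. They compare reads and not molecules.

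The tissue label was set against its markers. All 8 platelet genes had rows and took 3.47%, 3.67% and 3.71% of counts in replicates 1, 2 and 3. The monocyte, B cell, T cell and neutrophil lists each summed to less than the red cell list in every library. The red cell sum was lowest in replicate 2, at 5237 CPM. Monocyte markers summed to 1306 to 1529 CPM, nearly all from Lyz2, and the B cell, T cell and neutrophil sums are given above. An RNA at a few CPM, such as Sod2, cannot be assigned to platelets alone.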

How the data were processed

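Per the labels' protocols, platelet RNA was extracted with a Norgen kit and sequenced on Illumina chemistry after TruSeq RNA v2 library preparation, a kit that does not mark strand. The authors' deposited tables, 1 per library, hold the count of reads for each Entrez gene, not normalized, beside the length of that gene. Per the submitters' processing notes the build was mm10 and the tools were edgeR 3.11.5, CASAVA 1.8.2, featureCounts and Subread. Their order and settings and the annotation are not given in the sources. The tables list the same 9822 genes, already filtered by an unstated rule. Symbols and coordinates came from the RefSeq table for GRCm38.p6 (9636 genes matched).

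CPM, RPKM and log2 ratios (prior count 2) were computed from the counts. The spread test fitted an intercept with TMM scaling in edgeR 4.0.16 (R 4.3.3, limma 3.58.1) to genes averaging at least 1 CPM, and compared each quasi-likelihood dispersion with the trend through the upper F tail. Dispersion outliers came from DESeq2 1.42.0. On simulated data with 1 library changed, 0 of 7880 unchanged genes were called and 50 of 50 changed 8-fold. Coding sequences were compared with BLAST 2.17.0 and Biopython 1.88. Other steps used Python 3.11.15, NumPy 2.4.6, pandas 2.3.3 and SciPy 1.17.1.

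Named genes were the members, their partners in fixed pairs, the 3 highest by reads of each antioxidant list and the 3 nearest profiles. For the lists of other blood cells only sums are given, and further genes are named where a result turns on them. The members and lists were chosen with earlier results of these data known. Libraries were compared in pairs by chi-square (17.9 to 104 per degree of freedom), so no pair agreed within sampling noise.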

Additional observations from a re-analysis of the deposited data

How the results depend on the processing

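All 10 members were detected at minimums of 0.5 and 5 CPM, at 1 RPKM, with TMM scaling and without each replicate, and 0 members were called in the spread test under every alternative run. The 19 genes called over the whole table became 11 with plain totals, 11 above a mean of 5 CPM, 0 with a robust prior and 49 by DESeq2's dispersion outliers, and ranged from 1 (without replicate 1) to 32 (without replicate 3, with 29 without replicate 2); the cause was not tested. The summed level of 3120.5 CPM was 5497 CPM with totals that omit the 10 highest genes and 3187 CPM with totals that omit the red cell list, and the median member, at 116 CPM, was 205 CPM with the first of these, as smaller totals raise every CPM. Without single replicates the sum ranged from 3109.6 to 3139 CPM. No log2 ratio of a pair changed sign with reads alone, GENCODE lengths, a prior count of 0.5 or without any replicate. No paired analysis was possible because there is 1 group. With 3 libraries the power is low. In the simulation 0 of 50 genes changed 2-fold in 1 library were called, and 26 of 50 changed 4-fold. Differences of 2-fold between libraries thus cannot be called, and many of 4-fold would be missed.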
